A study of Mus musculus with 6 samples.

Results

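Cholesterol in the brain is made within the brain itself, because lipoproteins of the blood do not cross the blood-brain barrier, and it is needed for the membranes of growing neurons and later for myelin. The genes described here are 33 genes of cholesterol synthesis and transport, chosen by their symbols. All 33 were found among the 53801 genes of the count table, and all 33 were among the 24739 genes that were tested. Their levels were compared between the whole brains of 3 Bahd1-KO (Bahd1-/-) and 3 Bahd1-WT (Bahd1+/+) mouse embryos at E16.5, all C57BL/6. BAHD1 is a protein of repressive chromatin complexes, and the knockout was constitutive, in embryos from crosses of heterozygous mice. No treatment was given, and both genotypes shared the strain, the stage and the tissue. The litter of each embryo is not given in the sources used here, so the p-values below measure the spread between these embryos.

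Synthesis starts from acetyl-CoA. The mevalonate arm builds isoprenoid units and joins them to farnesyl diphosphate, and the sterol arm closes them into lanosterol and trims this to cholesterol. When sterols are scarce in the membrane of the endoplasmic reticulum, SCAP carries the SREBP transcription factors to the Golgi apparatus, where they are cut and released to activate the synthesis genes, and INSIG proteins hold them back when sterols are plentiful. Excess cholesterol forms oxysterols that activate the LXR receptors, which turn on export through ABC transporters to lipoproteins that carry APOE.

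Not one of the 33 genes passed the threshold of an adjusted p of 0.05 between the genotypes (edgeR quasi-likelihood test, adjusted p 0.696 to 0.992), and none had an unadjusted p below 0.05. Over all genes tested, 1 gene passed (0.00404%), and it was Bahd1. Bahd1 itself had 2, 10 and 6 counts in the knockout embryos, against 1971, 3102 and 3470 in the wild-type embryos. Values of 3 embryos are given throughout in the order of the replicate numbers. The log2 fold changes of the 33 genes ran from -1.20 (Mvd) to 0.91 (Npc2), with standard errors of 0.22 to 0.93. Only Acat2 had levels that did not overlap between the genotypes, lower in Bahd1-KO, where 2.24% of all genes tested were lower without overlap. None of the 33 was higher without overlap, against 4.47% of all genes. This count depended on which embryos were used, as did the share of all genes. It stayed at 1 without Bahd1-KO replicate 3 and without Bahd1-WT replicate 2, where that share was not counted. It was 14 without Bahd1-KO replicate 2 (all genes, either direction, 36.6%), 13 without Bahd1-WT replicate 1 (29.9%), 3 without Bahd1-KO replicate 1 (16.1%) and 2 without Bahd1-WT replicate 3, both lower in Bahd1-KO (4.60%). With the size factors of DESeq2 it was 2 (6.82%).

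A single library stood apart from the other 5. The libraries held 61.7 to 91.8 × 1e6 counts, but in Bahd1-KO replicate 3 the gene Gm42418, which overlaps a ribosomal RNA repeat, held 22.6% of them (0.120 to 0.394% in the other 5 embryos) and mitochondrial ribosomal RNA took 22.1% (0.101 to 0.279%). Every level below is therefore in CPM (counts per 1e6) of a library size scaled by TMM, the trimmed mean of M-values, which set this library to 53.95 × 1e6 counts. Summed levels of 10 neuronal markers were 2636 in it, and 8323 to 10417 in the others. Of the 10, 5 were at their lowest of the 6 embryos there, while Snap25 was at its highest. The 10 genes of the oligodendrocyte lineage summed to 1330 against 158 to 266, with 6 at their highest and 2 at their lowest. Those 2 were Olig1 (8.66 against 15.1 to 32.2) and Olig2 (7.39 against 17.7 to 23.3). The 6 genes of meninges and connective tissue summed to 2101 against 305 to 434, the 6 of skeletal muscle to 67.9 against 1.91 to 9.91, and the 6 of lung to 1263 against 13.7 to 26.8, each list with 6 of 6 at their highest in this embryo. The 12 genes of radial glia and astrocytes summed to 1212 against 1364 to 1634, with 5 at their highest and 6 at their lowest. Gfap was among the highest (46.1 against 1.13 to 5.78) and Fabp7 among the lowest (14.7 against 423 to 576). The 10 genes of microglia and macrophages summed to 83.7 against 45.9 to 73.9, with 5 at their highest. The 8 genes of dividing progenitors summed to 1187 against 454 to 691, with 6 at their highest and 2 at their lowest. Those 2 were Eomes (5.23 against 57.1 to 105) and Neurog2 (0.704 against 20.2 to 39.9). Blood genes summed to 409 against 132 to 589. The sums of liver genes (67.4 against 240 to 702) and choroid plexus genes (113 against 291 to 770) were carried by Ttr, which is in both lists. Without Ttr the 7 liver genes summed to 11.4 against 0.825 to 32.9, with 3 at their highest, and the 5 choroid plexus genes to 57.5 against 46.9 to 75.4, with 3 at their highest and 2 at their lowest. Among defining markers, Mog was at 0 counts in Bahd1-WT replicates 2 and 3 and at 681 in Bahd1-KO replicate 3, and Sftpc was at 0 in Bahd1-WT replicate 1 and at 44670 in Bahd1-KO replicate 3. Such counts also stood in other libraries, with Mobp at 1573 and Mog at 73 in Bahd1-WT replicate 1 (Mobp at 17 to 46 in Bahd1-KO replicates 1 and 2 and Bahd1-WT replicates 2 and 3) and Sftpc at 225 and Scgb1a1 at 511 in Bahd1-KO replicate 2 (Scgb1a1 at 352 in Bahd1-KO replicate 3). Serpina1a, of the liver, was at 0 in 4 embryos. In whole tissue, fewer cells of a type and less RNA per cell cannot be told apart. The part of these markers in the values below was not tested, and each group is given with and without this embryo.

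**Figure D1:**
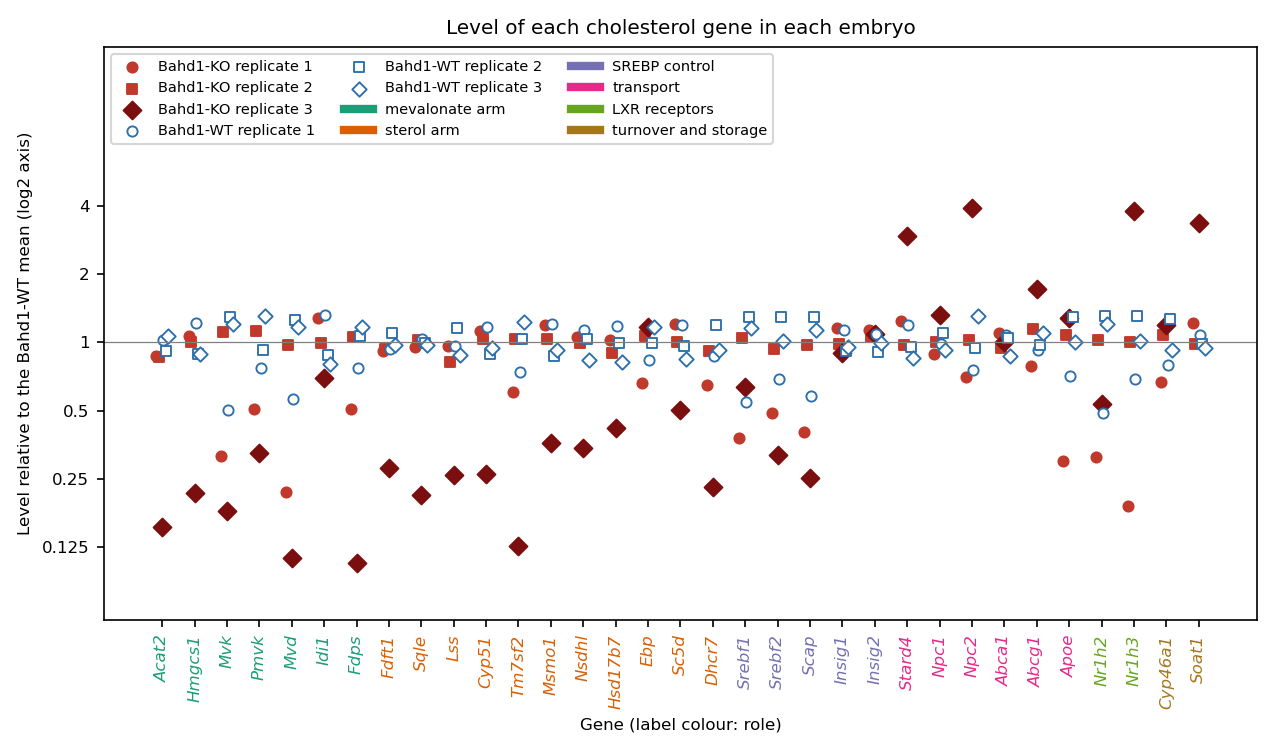
Level of each of the 33 genes in each embryo, divided by the mean of the 3 Bahd1-WT embryos, on a log2 axis. Each point is 1 embryo (filled red, Bahd1-KO; open blue, Bahd1-WT), and gene labels are coloured by role. Bahd1-KO replicate 3 (dark diamonds) was the lowest embryo for 17 of the 18 synthesis enzymes and the highest for Stard4, Npc2, Nr1h3 and Soat1, which held on total counts as well.

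Without Bahd1-KO replicate 3, 4 of 23334 genes passed (0.0171%) and again none of the 33 (lowest adjusted p 0.981, edgeR). The median log2 fold change of the 33 genes was -0.32 with all embryos and -0.18 without that embryo, where the medians over all genes tested were 0.06 and -0.01. With all embryos 24 of the 33 lay below 0 and 9 above, and without it 22 lay below and 11 above. Bahd1-KO replicate 3 had the lowest level of the 6 embryos for 20 of the 33 genes, against 36.0% of all genes, and the highest for 7, against 38.1%. Scaled to total counts, which keep the ribosomal RNA in the library size, it was lowest for 23 and highest for 4.

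The mevalonate arm held 7 of the genes. All 7 had a log2 fold change below 0 with all embryos, with a median of -0.67, and 5 of 7 without Bahd1-KO replicate 3, with a median of -0.29, and none passed the test. Of all genes tested, 11438 of 24739 lay below 0. Acat2, a cytosolic thiolase that makes acetoacetyl-CoA, had levels of 74.6, 74.0 and 13.1 in the knockout embryos and 87.3, 78.4 and 91.1 in the wild-type embryos. The first 2 Bahd1-KO embryos thus lay just under the lowest Bahd1-WT embryo, and the other lay 5.64-fold under the lowest of them. This gave a log2 fold change of -0.67 ± 0.58 (SE, adjusted p = 0.711, edgeR), and -0.22 ± 0.19 without the last embryo. Part of the Acat2 reads may be shared with Acat3, a near-identical neighbour on chromosome 17 (97.7% identity over 1477 bases). Acat3 itself had 26 counts in Bahd1-KO replicate 3 and 10 and 15 in the other Bahd1-KO embryos. Tcp1, also on chromosome 17, matched 445 bases of Acat2 at 98.7% identity on the opposite strand and had 14717 to 37145 counts.

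Hmgcs1, the cytosolic HMG-CoA synthase, was the most abundant of the 33 genes in the Bahd1-WT embryos, per length as well as by level. Its levels were 1044, 991 and 213 in the knockout embryos and 1192, 877 and 877 in the wild-type embryos. The first 2 Bahd1-KO embryos fell inside the Bahd1-WT range, and Bahd1-KO replicate 3 held 21.4% of the mean of the other 5. Its log2 fold change of -0.39 ± 0.56 (SE) with all embryos became 0.04 ± 0.21 without that embryo.

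Mevalonate kinase (Mvk) and phosphomevalonate kinase (Pmvk) add phosphates to mevalonate, and Mvd, the diphosphomevalonate decarboxylase, makes the first isoprenoid unit. Mvd had levels of 5.14, 22.9 and 2.63 in the knockout embryos and 13.3, 29.6 and 27.6 in the wild-type embryos. Mvk levels were 5.31, 18.8 and 3.04 against 8.44, 21.8 and 20.2. In both genes replicate 1 of each genotype was low along with Bahd1-KO replicate 3, so the genotypes overlapped. Pmvk levels were 23.8, 52.8 and 15.2 against 36.0, 43.6 and 61.1, in the same pattern. The log2 fold changes were -1.20 ± 0.78 for Mvd, -0.89 ± 0.71 for Mvk and -0.61 ± 0.48 for Pmvk (SE), the first being the lowest of the 33 genes.

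Idi1, which isomerises the isoprenoid unit, and Fdps, which joins units to farnesyl diphosphate, had low levels in every embryo. Idi1 levels were 10.4, 8.10 and 5.67 in the knockout embryos and 10.7, 7.11 and 6.54 in the wild-type embryos. Fdps levels were 2.85, 5.89 and 0.593 against 4.29, 5.94 and 6.50. Of all 33 genes Fdps had the lowest share in Bahd1-KO replicate 3, at 11.6% of the mean of the other 5, and Idi1 the highest share of the mevalonate arm, at 66.2%. The Idi1 values are uncertain, because processed pseudogenes Gm13502 and Gm35570 matched its transcript at 100% and 97.7% identity over 684 and 681 bases.

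The sterol arm held 11 genes, all with a log2 fold change below 0 with all embryos (median -0.35) and 7 of 11 without Bahd1-KO replicate 3 (median -0.07). Squalene synthase (Fdft1) and squalene epoxidase (Sqle), which commit the pathway to sterols, were the steadiest enzymes in the other 5 embryos. Sqle levels were 196, 211 and 43.7 in the knockout embryos and 212, 204 and 200 in the wild-type embryos. Fdft1 levels were 171, 172 and 51.7 against 172, 204 and 180. In the other 5 embryos the highest Sqle level was 1.08-fold the lowest, while Bahd1-KO replicate 3 lay 4.48-fold under that lowest. The log2 fold change of Sqle was -0.45 ± 0.53 with all embryos and -0.03 ± 0.18 without that one (SE). A processed pseudogene, Gm6781, matched Fdft1 at 97.4% identity over 1249 bases and had at most 8 counts in a Bahd1-KO embryo.

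Lanosterol synthase (Lss) closes the ring system, and Cyp51 removes the first methyl group of lanosterol. Cyp51 levels were 297, 273 and 69.7 in the knockout embryos and 308, 234 and 250 in the wild-type embryos, and Lss levels were 85.8, 73.1 and 23.3 against 85.9, 104 and 78.3. Both genes were lowest in Bahd1-KO replicate 3, and for Cyp51 the first 2 Bahd1-KO embryos lay inside the Bahd1-WT range. Tm7sf2, a sterol reductase, ranged more widely, with 8.29, 14.3 and 1.74 against 10.2, 14.2 and 16.9.

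The enzymes that remove the remaining methyl groups, Msmo1, Nsdhl and Hsd17b7, shared 1 pattern. Msmo1 levels were 126, 110 and 38.2 in the knockout embryos and 127, 92.8 and 98.3 in the wild-type embryos. Nsdhl levels were 68.8, 64.5 and 22.1 against 73.4, 66.8 and 54.3, and Hsd17b7 levels were 29.8, 26.0 and 12.2 against 34.4, 29.0 and 23.7. In all 3 genes the first 2 Bahd1-KO embryos lay inside the Bahd1-WT range and Bahd1-KO replicate 3 lay under it, at 34.4, 33.8 and 42.8% of the mean of the other 5. Their log2 fold changes without that embryo were 0.14 ± 0.21, 0.03 ± 0.21 and -0.07 ± 0.24 (SE).

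Among the last enzymes of the pathway, Ebp differed from the rest. Ebp, the sterol isomerase, had levels of 6.35, 10.2 and 11.3 in the knockout embryos and 8.03, 9.54 and 11.3 in the wild-type embryos. It was the single synthesis enzyme for which Bahd1-KO replicate 3 was not the lowest embryo, and there it held 124% of the mean of the other 5. Sc5d, the sterol desaturase, had levels of 144, 119 and 60.1 against 142, 115 and 100, and Dhcr7, which carries out the final reduction of 7-dehydrocholesterol, had 34.0, 47.7 and 12.1 against 45.8, 62.5 and 48.6. The log2 fold change of Dhcr7 was -0.74 ± 0.48 (SE, adjusted p = 0.696, edgeR) and -0.37 ± 0.25 without that embryo. Summed over the 18 enzymes, levels were 2332, 2294 and 599 in the knockout embryos and 2572, 2198 and 2152 in the wild-type embryos. The sum of Bahd1-KO replicate 3 was the only one of the 6 outside 2152 to 2572.

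**Figure D2:**
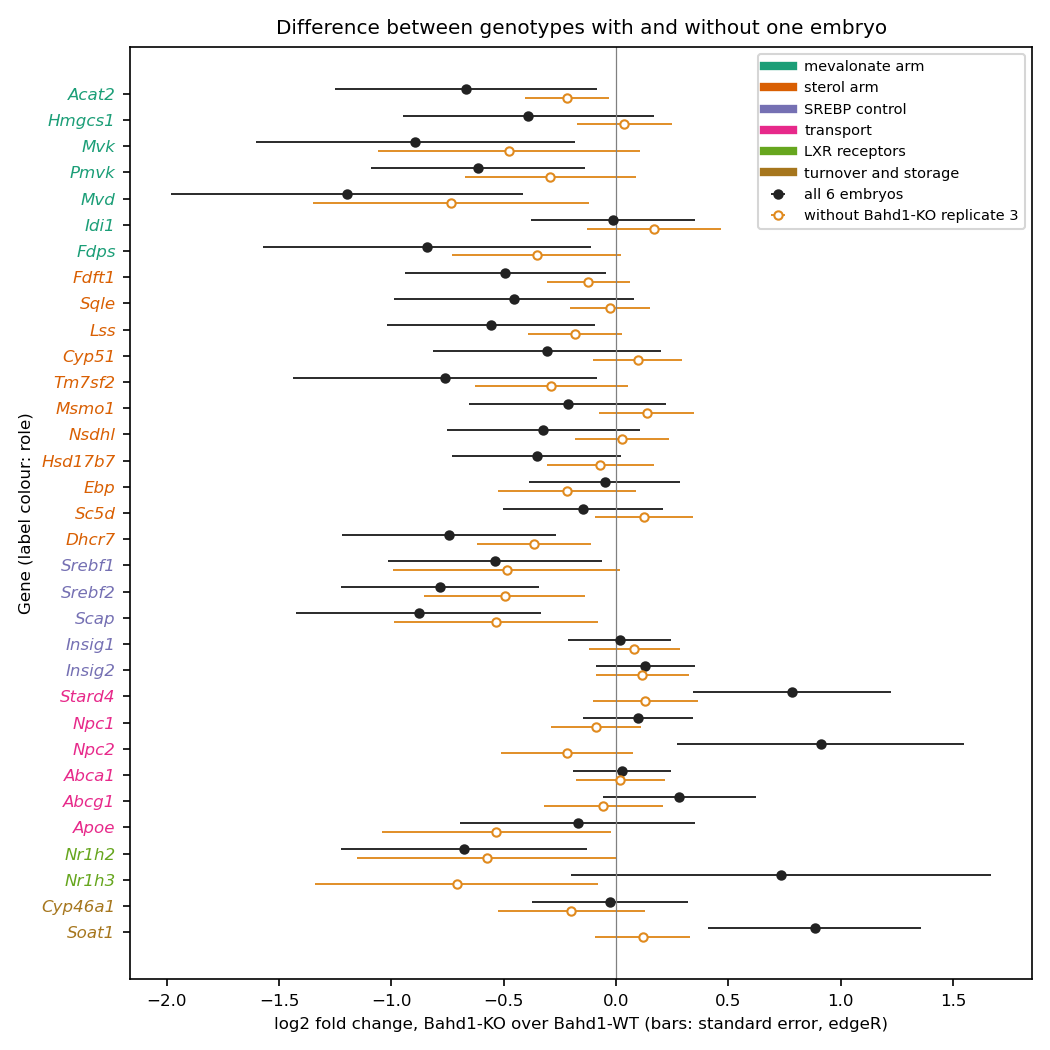
Log2 fold change of each gene in Bahd1-KO over Bahd1-WT, with a bar for the standard error derived from the F statistic of edgeR. Values are shown for all 6 embryos (black) and without Bahd1-KO replicate 3 (open orange). The median of the 18 synthesis enzymes was -0.47 in the first case and -0.15 in the second, and Stard4, Npc2, Nr1h3 and Soat1 moved towards or past 0.

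The letters before the start sites of the genes were compared as a description. RefSeq promoter windows of the mouse (GRCm38.p6), from 250 bases before to 50 bases after the start, were found for 27 of the 33 genes, 15 of them synthesis enzymes; Fdps, Fdft1, Sqle, Stard4, Npc1 and Abcg1 had none. The CCAAT box (CCAAT, or ATTGG on the other strand) is bound by NF-Y, a factor that works beside SREBP. It stood in at least 1 window of 14 of the 15 enzymes, Acat2 being the exception, against 42.3% of protein-coding genes and 7 of the 12 other genes of the set. At least 2 matches in a window were found for 9 of the 15, against 14.6% of protein-coding genes. The GC box (GGGCGG, or CCGCCC on the other strand), bound by SP1, stood in 14 of the 15 and 9 of the 12, against 49.2%. The sterol regulatory element, searched as TCACNCCAC and on the other strand as GTGGNGTGA, matched only in Hmgcs1, 137 bases before its start, and in 1.24% of all windows. These motifs do not contain one another. Such matches are letters in a window and do not show binding. The 250 bases before the start of 4 enzymes are shown because they span the range of the pattern. Hmgcs1 (chr13:119690101-119690350, plus strand) was the most abundant gene in the Bahd1-WT embryos and holds the sterol regulatory element. Mvk (chr5:114444019-114444268, plus strand) has the densest CCAAT boxes. Mvd (chr8:122443423-122443672, minus strand) had the lowest log2 fold change, and Ebp (chrX:8193513-8193762, minus strand) was the enzyme not low in Bahd1-KO replicate 3. Capitals mark CCAAT boxes in either orientation and, in Hmgcs1, the 9 letters of the sterol regulatory element.
Hmgcs1: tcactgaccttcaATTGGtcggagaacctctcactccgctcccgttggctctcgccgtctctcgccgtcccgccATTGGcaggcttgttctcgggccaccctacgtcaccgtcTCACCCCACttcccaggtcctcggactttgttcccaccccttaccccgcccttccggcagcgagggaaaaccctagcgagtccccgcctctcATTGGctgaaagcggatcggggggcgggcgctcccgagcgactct
Mvk: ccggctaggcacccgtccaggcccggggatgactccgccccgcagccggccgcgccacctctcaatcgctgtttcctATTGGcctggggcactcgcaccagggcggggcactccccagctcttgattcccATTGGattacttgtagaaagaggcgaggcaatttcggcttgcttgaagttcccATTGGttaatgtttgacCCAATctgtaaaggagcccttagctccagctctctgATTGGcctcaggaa
Mvd: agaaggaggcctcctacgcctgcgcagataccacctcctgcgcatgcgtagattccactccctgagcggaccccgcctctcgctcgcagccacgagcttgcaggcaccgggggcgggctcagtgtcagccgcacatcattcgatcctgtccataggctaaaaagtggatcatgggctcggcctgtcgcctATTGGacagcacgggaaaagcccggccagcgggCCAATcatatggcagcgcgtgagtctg
Ebp: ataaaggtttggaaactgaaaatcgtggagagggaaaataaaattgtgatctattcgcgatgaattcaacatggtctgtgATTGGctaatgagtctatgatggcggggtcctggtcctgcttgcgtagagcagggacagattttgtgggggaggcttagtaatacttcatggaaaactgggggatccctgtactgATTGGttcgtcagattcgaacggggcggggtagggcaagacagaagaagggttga

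The genes of SREBP control differed in how widely the embryos spread. Srebf2, which encodes the SREBP that acts mainly on cholesterol genes, had levels of 84.1, 160 and 54.8 in the knockout embryos and 119, 222 and 175 in the wild-type embryos. Srebf1, whose products act mainly on fatty acid genes, had 7.53, 20.6 and 12.6 against 10.7, 25.6 and 22.9. Scap, the sterol sensor that escorts both, had 21.6, 52.6 and 13.5 against 31.4, 69.3 and 60.8. In all 3 genes replicate 1 was the lowest Bahd1-WT embryo and was under Bahd1-KO replicate 2, so the genotypes overlapped. The log2 fold changes were -0.78 ± 0.44 for Srebf2, -0.54 ± 0.48 for Srebf1 and -0.88 ± 0.55 for Scap (SE, adjusted p from 0.696 to 0.714, edgeR). Without Bahd1-KO replicate 3 they were -0.50, -0.49 and -0.54. With the correction for GC content given below as well, they were -0.17, -0.18 and -0.20.

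Insig1 and Insig2, which retain SCAP in the endoplasmic reticulum, varied least of these genes. Insig1 levels were 58.8, 50.2 and 45.6 in the knockout embryos and 57.8, 46.5 and 48.7 in the wild-type embryos. Insig2 levels were 31.4, 29.5 and 30.5 against 30.4, 25.3 and 27.8. Their log2 fold changes were 0.02 ± 0.23 and 0.13 ± 0.22 (SE), which on total counts turned to -0.14 and -0.05. Per length, Insig1 stood at 2.06 ± 0.084 times Insig2 in Bahd1-WT embryos (SD, n = 3) and at 1.68 in Bahd1-KO replicate 3, against 1.91 to 2.13 in the other 5 embryos. The ratio of Srebf2 to Srebf1 was 3.40 in that embryo and 5.97 to 8.76 in the others.

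Among the 6 transport genes, Bahd1-KO replicate 3 was the highest embryo for 4 and the lowest for none, and on total counts the highest for 2 (Stard4 and Npc2) and the lowest for Npc1 and Abca1. Of the 6, 5 had a log2 fold change above 0 with all embryos (median 0.19) and 2 of 6 without it (median -0.07). The median with all embryos also lay below 0 on total counts (-0.056) and by voom (-0.094). Stard4, a protein that shuttles sterols through the cytosol, had levels of 48.2, 37.8 and 115 in the knockout embryos and 46.4, 37.1 and 33.1 in the wild-type embryos. Npc2, the soluble cholesterol carrier of lysosomes, had 44.5, 65.1 and 249 against 47.8, 60.0 and 82.7. For both genes the first 2 Bahd1-KO embryos lay within or next to the Bahd1-WT range, and Bahd1-KO replicate 3 exceeded the highest of the other 5 by 2.38-fold and 3.01-fold. Their log2 fold changes of 0.78 ± 0.44 and 0.91 ± 0.64 became 0.13 ± 0.23 and -0.22 ± 0.29 without it (SE).

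Npc1, the membrane protein that takes cholesterol from NPC2 and exports it from lysosomes, varied less. Its levels were 47.6, 53.7 and 70.2 in the knockout embryos and 52.5, 58.5 and 49.3 in the wild-type embryos. Its log2 fold change was 0.10 ± 0.24 (SE), and -0.13 on total counts. Per length, Npc2 stood at 7.36 times Npc1 in Bahd1-KO replicate 3 and at 1.89 to 3.49 times in the other embryos.

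The exporters Abca1, which loads cholesterol onto lipid-poor apolipoproteins, and Abcg1, which passes it to formed particles, differed in that embryo. Abca1 levels were 109, 93.3 and 99.2 in the knockout embryos and 106, 103 and 86.0 in the wild-type embryos. Abcg1 levels were 11.9, 17.4 and 26.0 against 14.1, 14.7 and 16.7, highest in Bahd1-KO replicate 3. The ratio of Abca1 to Abcg1 per length was 2.69 in that embryo and 3.63 to 6.43 in the other 5. Their log2 fold changes were 0.03 ± 0.22 and 0.28 ± 0.34 (SE), and that of Abca1 was -0.15 on total counts.

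Apoe, the main apolipoprotein of the brain and a product of astrocytes and microglia, had levels of 24.1, 86.5 and 103 in the knockout embryos and 56.8, 104 and 80.2 in the wild-type embryos. Here the low embryos were replicate 1 of each genotype, and Bahd1-KO replicate 3 was close to the highest Bahd1-WT embryo. Its log2 fold change came to -0.17 ± 0.52 with all embryos and -0.53 ± 0.51 without the latter (SE, adjusted p = 0.981, edgeR).

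The LXR receptors differed between themselves. Nr1h2 encodes LXRβ, which is widely expressed, and its levels were 4.91, 16.2 and 8.43 in the knockout embryos and 7.67, 20.6 and 19.0 in the wild-type embryos. Nr1h3 encodes LXRα, known from liver, fat and macrophages, and had 0.168, 0.888 and 3.35 against 0.606, 1.15 and 0.891. Per length, Nr1h2 stood at 12.97 ± 3.26 times Nr1h3 in Bahd1-WT embryos (SD, n = 3) and at 1.88 times in Bahd1-KO replicate 3, against 9.49 to 22.0 in the other 5. For Nr1h3 the log2 fold change was 0.73 ± 0.93 with all embryos and -0.71 ± 0.63 without it, and that of Nr1h2 was -0.68 ± 0.55 and -0.58 ± 0.58 (SE). The microglia and macrophage sum in this embryo was 83.7 against 45.9 to 73.9 in the others, and its lung sum was 1263.

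Soat1, which esterifies cholesterol for storage, had levels of 33, 26.7 and 91.0 in the knockout embryos and 29.2, 26.7 and 25.7 in the wild-type embryos. In the other 5 embryos the highest level was 1.28-fold the lowest, and Bahd1-KO replicate 3 exceeded the highest 2.76-fold. Its log2 fold change was 0.88 ± 0.47 and, without that embryo, 0.12 ± 0.21 (SE). Cyp46a1, the neuronal hydroxylase that lets cholesterol leave the brain as 24S-hydroxycholesterol, had 7.36, 11.8 and 13.1 against 8.76, 13.9 and 10.2, so that its genotypes overlapped (log2 fold change -0.03 ± 0.35, SE).

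A second pattern ran within both genotypes. Compared with Bahd1-WT replicates 2 and 3, the level of Bahd1-WT replicate 1 was lower for Mvk by a log2 difference of -1.31, for Nr1h2 by -1.37 and for Mvd by -1.11, and higher for Idi1 by 0.65 and for Hmgcs1 by 0.44. Compared with Bahd1-KO replicate 2, that of Bahd1-KO replicate 1 differed by -1.82, -1.72 and -2.16 for the first 3 genes and by 0.36 and 0.07 for the others. Both replicate 1 embryos were below the others of their genotype, with Bahd1-KO replicate 3 not used, for 17 of the 33 genes (30.2% of all genes tested) and above them for 12 (29.0%). Among genes with a mean level of at least 1, 38.1% were below and 33.3% above in this way. The GC content of the longest transcript moved with this difference. Across the 33 genes, from 41.9% in Idi1 to 60.6% in Nr1h2, Pearson's r between GC content and the log2 difference was -0.92 in the Bahd1-WT embryos and -0.88 in the Bahd1-KO embryos. Over 14761 genes with a mean level of at least 1 the same correlations were -0.76 and -0.74. These are correlations across genes of the same few libraries, which are not independent replicates.

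All 10 of the 33 genes with a GC content of at least 55% were lower in both replicate 1 embryos (Mvk, Pmvk, Mvd, Srebf1, Srebf2, Scap, Apoe, Nr1h2, Nr1h3 and Cyp46a1), as were 88.9% of the 3132 genes at that level and GC content. Of the 23 with less, 7 were lower in both and 12 higher. The same 10 genes had log2 fold changes below 0 without Bahd1-KO replicate 3, from -0.74 (Mvd) to -0.20 (Cyp46a1). In that fit replicate 1 was 1 of 2 Bahd1-KO embryos but 1 of 3 Bahd1-WT embryos, so its pattern was not balanced between genotypes. Removing the GC trend of every embryo was an alternative added after seeing the data. Without Bahd1-KO replicate 3 it left 9 of the 10 below 0, from -0.53 (Nr1h3) to -0.04 (Pmvk), with Cyp46a1 at 0.16 and Mvd at -0.52. Each of the 9 was smaller in size than before this correction, such as Mvk (-0.26 after -0.48) and Nr1h2 (-0.26 after -0.58). With all 6 embryos the correction gave -0.93 for Mvd, -0.65 for Mvk, -0.47 for Scap, -0.39 for Srebf2 and -0.084 for Srebf1. In the same fit Pmvk stood at -0.31 and Nr1h2 at -0.13, while Apoe (0.38), Cyp46a1 (0.48) and Nr1h3 (1.20) lay above 0.

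**Figure D3:**
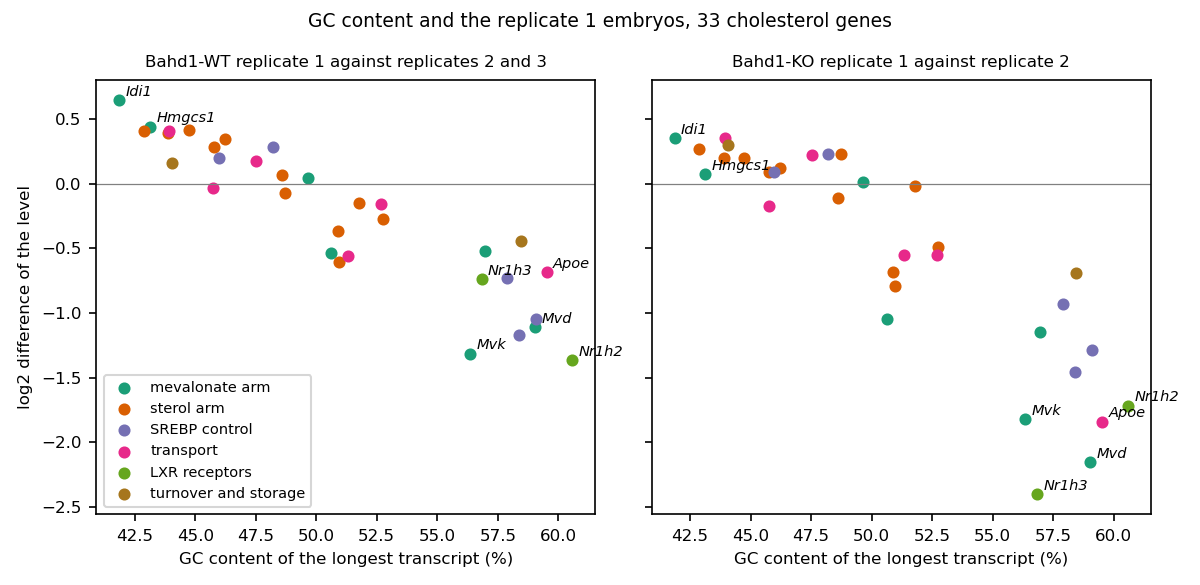
Log2 difference in level between the replicate 1 embryo and the other embryos of its genotype (left, Bahd1-WT replicate 1 against the mean of replicates 2 and 3; right, Bahd1-KO replicate 1 against replicate 2) over the GC content of the longest transcript, for the 33 genes coloured by role. GC-rich genes such as Mvd and Nr1h2 lie among the lowest in both panels, and AT-rich genes such as Idi1 among the highest.

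Levels per kb of exon ranked the genes in the Bahd1-WT embryos. Hmgcs1 led with 214 ± 39.5 (SD, n = 3), ahead of Cyp51 with 59.8 ± 8.83, Fdft1 with 43.8 ± 3.86, Apoe with 37.5 ± 10.9, Sqle with 37.1 ± 1.07 and Acat2 with 33.7 ± 2.56. Fdps with 1.33 ± 0.273 and Nr1h3 with 0.350 ± 0.107 came last. Of the 32 pairs of neighbours in this order, 5 did not overlap over the 3 embryos, namely Hmgcs1 and Cyp51, Cyp51 and Fdft1, Sqle and Acat2, Abcg1 and Fdps, and Fdps and Nr1h3, and the other 27 did. Within the mevalonate arm the order ran from Hmgcs1 and Acat2 through Pmvk (27.4 ± 7.51), Mvd (12.6 ± 4.79) and Mvk (6.28 ± 2.73) to Idi1 (2.32 ± 0.644) and Fdps. Among transport genes Apoe was followed by Npc2 (11.7 ± 3.26), Abca1 (9.51 ± 1.06), Stard4 (6.96 ± 1.22), Npc1 (4.72 ± 0.412) and Abcg1 (2.08 ± 0.186).

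**Figure D4:**
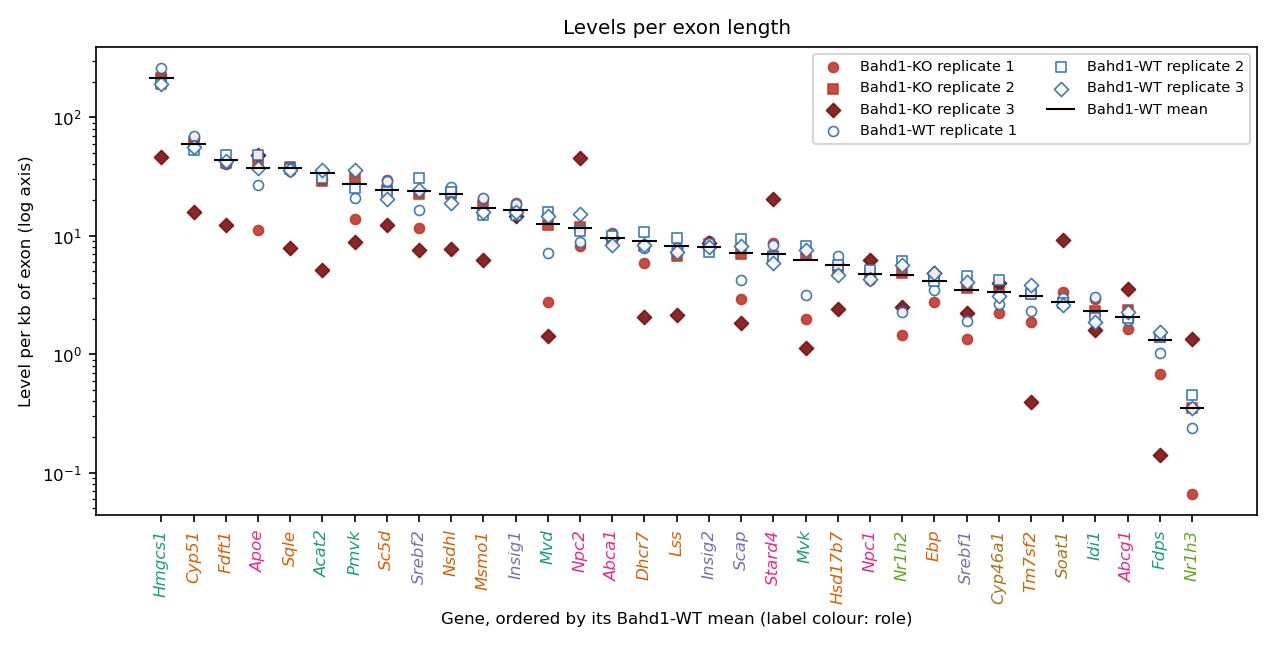
Level per kb of exon (CPM after TMM scaling, divided by the length of all exons, log axis) of the 33 genes in each embryo, ordered by the Bahd1-WT mean, which is drawn as a black line. Hmgcs1 stands above all others in the Bahd1-WT embryos and Nr1h3 below all others, while Bahd1-KO replicate 3 (dark diamonds) has Fdps as its lowest gene.

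A list of 29 other genes of cholesterol, oxysterol and fatty acid metabolism was read from the same fit. None of the 29 passed the test, 13 had a log2 fold change above 0 and 16 below, and the median was -0.03. The lowest values were those of Fasn, the fatty acid synthase and a target of SREBP-1, with -1.07 ± 0.55, and Lrp1, a receptor for APOE, with -0.98 ± 0.49 (SE). The highest were those of Soat2, an acyltransferase of liver and intestine, with 1.03 ± 0.99 on 1 to 8 counts an embryo, and Lcat, which esterifies cholesterol on lipoproteins, with 0.85 ± 0.75 (SE). Fasn levels were 118, 297 and 77.4 in the knockout embryos and 215, 487 and 331 in the wild-type embryos, low in replicate 1 of each genotype and lowest in Bahd1-KO replicate 3, as for Srebf2. Lrp1 levels were 91.6, 236 and 99.3 against 158, 400 and 286. Lcat levels were 0.549, 1.14 and 4.36 against 1.20, 1.26 and 0.881, and so were highest in Bahd1-KO replicate 3, as for Npc2.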

How the data were processed

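Per the labels and the published methods, polyadenylated RNA of whole brains was taken by the authors, who built stranded TruSeq libraries, trimmed reads with cutadapt 1.11, aligned them to GRCm38 with STAR 2.5.0a (the supplementary methods also name TopHat2) and counted them per gene with featureCounts 1.4.6-p3. The deposited values are raw read counts, with no normalization, 1 column per embryo. Groups came from the sample titles.

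Genes with at least 10 counts in all were tested with the edgeR 4.0.16 quasi-likelihood test (R 4.3.3), two-sided, with TMM factors and no term other than genotype, and p-values were adjusted by Benjamini-Hochberg over 24739 genes at a threshold of 0.05. The edgeR test gives no standard error. Each SE was derived as the size of the log2 fold change divided by the square root of its F statistic. Levels are CPM of the scaled library, and per kb use the summed exon length of GENCODE M21. The alternatives were DESeq2 1.42.0, voom (limma 3.58.1) with quality weights, other filters, other scalings, the replicate number as a block, each embryo left out and, added after seeing the data, a lowess correction for GC content (span 0.3), alone, with the block or without Bahd1-KO replicate 3. Fits were tested on simulated data that held no outlying library and no GC trend. That test therefore does not show how the fits handle either. Near-identical transcripts were searched with BLAST (at least 95% identity over 200 bases). The genes and lists were chosen with earlier results of these data known. All 33 genes are named, and of the other pathway genes those past the threshold and the 2 highest and 2 lowest by log2 fold change. Counting error is small at 61.7 to 91.8 × 1e6 counts for genes with many counts. It is larger for low counts, such as 11 of Nr1h3 in Bahd1-KO replicate 1 and 32 of Fdps in Bahd1-KO replicate 3. Apart from such counts, the spread between embryos set the precision.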

Additional observations from a re-analysis of the deposited data

How the results depend on the processing

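None of the 33 genes passed the test in any of the 19 fits (lowest adjusted p 0.235), nor did another pathway gene, and 14 of the 33 kept the sign of their log2 fold change in every alternative. At an unadjusted p under 0.05 stood 9 of them by voom (8.9% of all genes tested), 9 without Bahd1-KO replicate 2 (20.2%), 9 with the block without Bahd1-KO replicate 3 (9.3%), 1 (Srebf2) with the block (2.1%) and 0 in the other fits. Over all genes, 8 were called by DESeq2, 6 by voom, 0 without ribosomal and mitochondrial RNA genes, 6 with the GC correction without Bahd1-KO replicate 3, and 0 to 4 with an embryo left out. Of the 33, 2 did not overlap with DESeq2 size factors (6.82% of all genes) and 1 to 14 with an embryo left out.

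Deviations of the embryos that share a number correlated at 0.36, 0.41 and -0.13 for replicates 1, 2 and 3. Replicate 2 of Bahd1-KO correlated as much with replicate 3 of Bahd1-WT (0.44), and at -0.57 with replicate 1 of that genotype. Replicate 1 of Bahd1-KO had its only positive correlation with the wild-type embryo of its number (-0.26 and -0.27 with the others). Deviations were taken from the mean of each genotype, Bahd1-KO replicate 3 included, so 1 positive correlation brings at least 1 negative one. The negative values are therefore not separate evidence of a pair. The numbers thus did not single out pairs for replicates 2 and 3, while the replicate 1 embryos moved together. With the replicate block 0 genes were called, 16 without Bahd1-KO replicate 3 as well, and 0 with the block and the GC correction. Under the block the sign changed for Nr1h3 -0.078, and under the block without that embryo for Idi1 0.053, Cyp51 0.070, Msmo1 0.10, Sc5d 0.017, Npc1 -0.15, Npc2 -0.0089, Abca1 -0.074, Abcg1 -0.015 and Nr1h3 -0.96.

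Other sign changes of log2 fold changes were, by voom, Hmgcs1 0.045, Idi1 0.32, Cyp51 0.11, Msmo1 0.20, Sc5d 0.17, Npc1 -0.11, Npc2 -0.18, Abcg1 -0.076 and Nr1h3 -1.35. On total counts, which moved the median of all genes from 0.06 to -0.11, they were Insig1 -0.14, Insig2 -0.049, Npc1 -0.13 and Abca1 -0.15, and with filterByExpr Idi1 0.023, Ebp 0.0060 and Cyp46a1 0.029. The GC correction gave Ebp 0.024, Insig1 -0.030, Insig2 -0.020, Npc1 -0.073, Abca1 -0.056, Apoe 0.38 and Cyp46a1 0.48, and with the block added Insig1 -0.035, Insig2 -0.021, Npc1 -0.083, Abca1 -0.054, Apoe 0.14 and Cyp46a1 0.43. The GC correction without Bahd1-KO replicate 3 gave Fdft1 0.0053, Cyp51 0.022, Msmo1 0.021, Stard4 -0.014, Npc1 -0.18, Npc2 -0.12, Abca1 -0.019, Nr1h3 -0.53, Cyp46a1 0.16 and Soat1 -0.031. The median of SREBP control, which is the value of its middle gene, was -0.084, -0.087 and -0.17 under these corrections. The transport median turned to -0.056 on total counts, -0.094 by voom, -0.045 under the block without Bahd1-KO replicate 3 and -0.070 with the GC correction without that embryo. The cause was not tested.

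With an embryo left out, log2 fold changes that changed sign ran from -0.71 to 0.036 (Hmgcs1), -0.24 to 0.20 (Idi1), -0.62 to 0.10 (Cyp51), -0.52 to 0.14 (Msmo1), -0.58 to 0.025 (Nsdhl), -0.22 to 0.16 (Ebp), -0.41 to 0.13 (Sc5d), -0.088 to 0.081 (Insig1), -0.089 to 0.22 (Npc1), -0.22 to 1.31 (Npc2), -0.073 to 0.049 (Abca1), -0.056 to 0.52 (Abcg1), -0.53 to 0.24 (Apoe), -0.71 to 1.27 (Nr1h3) and -0.20 to 0.19 (Cyp46a1). Group medians ran from -1.30 to -0.29 (mevalonate arm), -0.62 to -0.070 (sterol arm), -1.01 to -0.25 (SREBP control) and -0.072 to 0.38 (transport). The median Bahd1-WT level per kb was 8.28 by exon length and 12.7 by the longest transcript.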
